A study of Mus musculus with 18 samples.

Results

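The growth hormone and prolactin signalling genes described here are 10 genes of the mouse liver chosen by name: the receptors Ghr and Prlr, the transducers Stat5a and Stat5b, the feedback genes Socs2 and Cish, the circulating products Igf1 and Igfals, and the sex-dependent repressors Bcl6 and Cux2. They were chosen with earlier results of these data known. They are 10 of the 32285 genes in the count table, and all 10 were among the 13356 genes with enough counts to be tested. Liver RNA was sequenced from 18 mice in 3 groups of 6, with 1 library per animal. Space pups were offspring, killed at 10 weeks of age, of germline stem (GS) cells, a culture of spermatogonial stem cells. These GS cells came from DBA/2 mice, carried an EGFP transgene per the study, and were stored frozen aboard the International Space Station over 6 months. The thawed cells were transplanted into seminiferous tubules of W mice, Kit mutants without sperm production of their own, and the recipients were mated to C57BL/6 females. Ground pups were made in the same way from GS cells stored frozen on Earth. BDF1 mice were untreated wild-type controls, whose age is not given. All 3 groups are labelled wild-type in genotype and B6D2F1 in strain, that is, first-generation offspring of the C57BL/6 and DBA/2 strains. The study states that pups of both sexes were used, gives no sex for the wild-type mice and names fewer of them than the table holds BDF1 libraries, and the labels give no sex. Replicates 1 to 3 of each group had 0 to 187 counts of Xist, the RNA of the inactive X chromosome, and replicates 4 to 6 had 12218 to 21557. Counts of Y-linked genes were 1822 to 2482 in replicates 1 to 3 and 0 to 26 in replicates 4 to 6. Groups were therefore compared within replicates 1 to 3 and within replicates 4 to 6. The question of these comparisons is whether livers of the offspring differed in expression from those of BDF1 mice, and between Space and Ground pups. Pups differed from BDF1 mice in GS cell culture, freezing, donor line and transplantation as well as storage, and possibly in age. No group came from GS cells that were not stored, so these causes cannot be told apart.

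Growth hormone from the pituitary binds its receptor on hepatocytes and activates the kinase JAK2, which phosphorylates the transcription factors STAT5A and STAT5B. Phosphorylated STAT5 enters the nucleus, binds paired TTC and GAA half-sites, and drives IGF1, its carrier proteins and the feedback inhibitors of the SOCS family. Prolactin acts through a related receptor of the same cytokine receptor class and also through STAT5. Growth hormone is secreted in pulses in male rodents and more evenly in females, and this difference sets the sex-dependent expression of many liver genes. BCL6, a repressor higher in male liver, and CUX2, a repressor higher in female liver, take part in that difference.

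The STAT5 recognition letters TTCNNNGAA were searched in the 300 bases around each annotated transcription start, from 250 before to 50 after it, in the RefSeq promoter table of build GRCm38.p6. The letters are their own reverse complement, so 1 search covers both strands. Of 32851 windows in the table, 8.3% held at least 1 match, 0.457% at least 2 and 0.0335% at least 3. The members had 18 windows in 9 genes, and Socs2 had none. A match was found in 6 windows of 4 members, Cish, Prlr, Bcl6 and Igfals. The 3 windows printed here belong to members with large differences between pup libraries, with the matches in capitals. The Cish window, chr9:107296409-107296708 on the plus strand, held 2 matches that began at bases 1 and 12 of the transcript, the start counted as 1. The Bcl6 window, chr16:23981234-23981533 on the minus strand, held 3 matches, which began 168, 122 and 88 bases before the start. The Prlr window, chr15:10223656-10223955 on the plus strand, held 1 match 110 bases before the start. The first transcribed bases of these Bcl6 and Prlr windows were in no transcript of the gene in the GENCODE M21 annotation. Those of the Cish window were. The other Bcl6 window, whose first bases were in a transcript, held 1 match. The other Prlr windows, whose first bases were also in a transcript, held 0. A match is a description of the letters, and gene-level counts do not show which start was used.
Cish: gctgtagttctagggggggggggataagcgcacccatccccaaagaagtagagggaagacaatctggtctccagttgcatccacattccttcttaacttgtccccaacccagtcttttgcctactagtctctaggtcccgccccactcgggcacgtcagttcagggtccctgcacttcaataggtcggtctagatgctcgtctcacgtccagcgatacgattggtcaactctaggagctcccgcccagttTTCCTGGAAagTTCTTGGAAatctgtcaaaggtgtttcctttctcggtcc
Bcl6: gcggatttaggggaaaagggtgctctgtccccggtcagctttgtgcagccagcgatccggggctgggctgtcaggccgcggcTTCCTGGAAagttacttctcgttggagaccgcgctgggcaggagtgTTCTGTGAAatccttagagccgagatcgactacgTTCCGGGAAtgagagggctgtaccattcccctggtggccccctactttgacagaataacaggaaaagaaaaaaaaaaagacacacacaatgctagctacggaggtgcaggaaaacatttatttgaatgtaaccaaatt
Prlr: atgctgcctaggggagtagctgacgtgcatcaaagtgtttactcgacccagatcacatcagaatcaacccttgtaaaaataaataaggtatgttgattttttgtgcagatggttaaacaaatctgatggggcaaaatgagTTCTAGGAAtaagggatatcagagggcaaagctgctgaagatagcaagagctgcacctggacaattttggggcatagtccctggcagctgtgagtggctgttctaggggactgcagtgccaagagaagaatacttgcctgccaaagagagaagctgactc

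Total counts per library ranged from 15407450 to 20562351, so that a gene without a count could still have reached 0.134 to 0.234 CPM, a gene's count relative to the TMM-scaled library size on the usual CPM scale. That limit covers counting error only. All levels below are CPM unless a level per kilobase is named. The liver label was checked against hepatocyte markers (Alb, Ttr, Apoa1, Tat and Cps1), none of which was at 0, and whose summed level was 54742 CPM or more in every library. For replicates 4 to 6 that sum was 212210 to 371632 CPM in pups and 72414 to 94092 CPM in BDF1 mice. Most of it was Alb, at 193502 to 341906 CPM in these pups, and its members did not move as one. Apoa1 was also higher in all 6 pups, at 9125 to 19761 CPM against 4288 to 5381 CPM, Cps1 was lower in all 6, at 2014 to 4305 CPM against 4531 to 4998 CPM, and Ttr overlapped with the controls. Tat was 640 to 716 CPM in Space replicates 5 and 6 and Ground replicate 4, below the 1306 to 2367 CPM of the controls, and 1598 to 2066 CPM in the other 3 pups. Markers of some other cells were also apart in pups of that set, while the endothelial, stellate, macrophage and adipose sums overlapped with the controls. The sum of 4 cholangiocyte markers was 2.49 to 3.75 CPM in Ground pups against 4.57 to 6.25 CPM in controls, and Space pups overlapped with both. The sum of 3 neutrophil markers was 3.16 to 5.31 CPM against 0.837 to 2.32 CPM in controls, and that of 4 lymphocyte markers was 2.10 to 4.34 CPM against 1.88 to 2.02 CPM. The sum of 4 erythroid markers was 100 to 698 CPM in pups and 31.5 to 85.2 CPM in BDF1 mice, and that of 4 pancreas markers was 6.56 to 18.6 CPM against 33.2 to 38.9 CPM. Of these 4, Pnlip was at 0 in every library and Prss2 and Cpa1 were at or near 0, so nearly the whole sum was Cela1. In the same set 3 pup libraries stood apart. Serpina6, the corticosteroid carrier of plasma, took 3.43% of the counts in Space replicate 4, 3.41% in Ground replicate 5 and 2.18% in Ground replicate 6, against 0.0664% to 0.107% in the other replicates 4 to 6. Among Space pups of replicates 1 to 3 and their controls, the sums were 85381 to 87109 against 54742 to 67453 CPM for hepatocyte markers, 152 to 169 against 94.9 to 118 CPM for stellate, 6.92 to 7.90 against 10.7 to 13.8 CPM for cholangiocyte and 45.7 to 52.7 against 65.0 to 74.9 CPM for endothelial markers. In Ground pups of that set the stellate sum was also above the controls, at 129.7 to 143 CPM, and the other sums overlapped with them, that of hepatocyte markers, at 67440 to 84779 CPM, only at its lowest library. Of the cholangiocyte markers only Sox9 was apart in Space pups of replicates 1 to 3, at 4.41 to 4.84 CPM against 8.34 to 12.1 CPM. The endothelial marker Stab2 overlapped there, at 14.9 to 18.1 CPM against 12.8 to 16.3 CPM. Sox9 was also the only cholangiocyte marker apart in Ground pups of replicates 4 to 6, at 0.967 to 1.34 CPM against 1.93 to 2.62 CPM. The part of these differences in the results below was not tested. In a tissue extract, fewer cells of a type and less RNA per cell cannot be told apart.

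Levels can be compared between genes only per length, so counts were divided by exon length for the order of the members. In BDF1 replicates 1 to 3, Igf1 was highest with 46.6 ± 8.74 CPM per kilobase (SD, n = 3), followed by Ghr with 37.9 ± 1.68 and Igfals with 29.7 ± 4.91 in the same unit. Stat5b, Bcl6, Prlr, Stat5a, Socs2, Cish and Cux2 came next in that order. The spreads overlapped between Igf1 and Ghr, Stat5b and Bcl6, Bcl6 and Prlr, Prlr and Stat5a, and Socs2 and Cish, so these neighbours were not separated. In BDF1 replicates 4 to 6, Igf1 had 67.3 ± 13.96, Igfals 54.3 ± 6.93 and Ghr 48.3 ± 2.07 CPM per kilobase (SD, n = 3), with overlapping spreads between neighbours, and Prlr came next with 23.5 ± 0.620. Ghr had rank 107 of 32158 genes per kilobase in Ground replicate 5, 130 in Space replicate 4 and 195 in Ground replicate 6, and rank 798 to 905 in the other replicates 4 to 6. Prlr had rank 183, 249 and 260 in the same 3 libraries and rank 1149 to 1480 in the others.

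**Figure D1:**
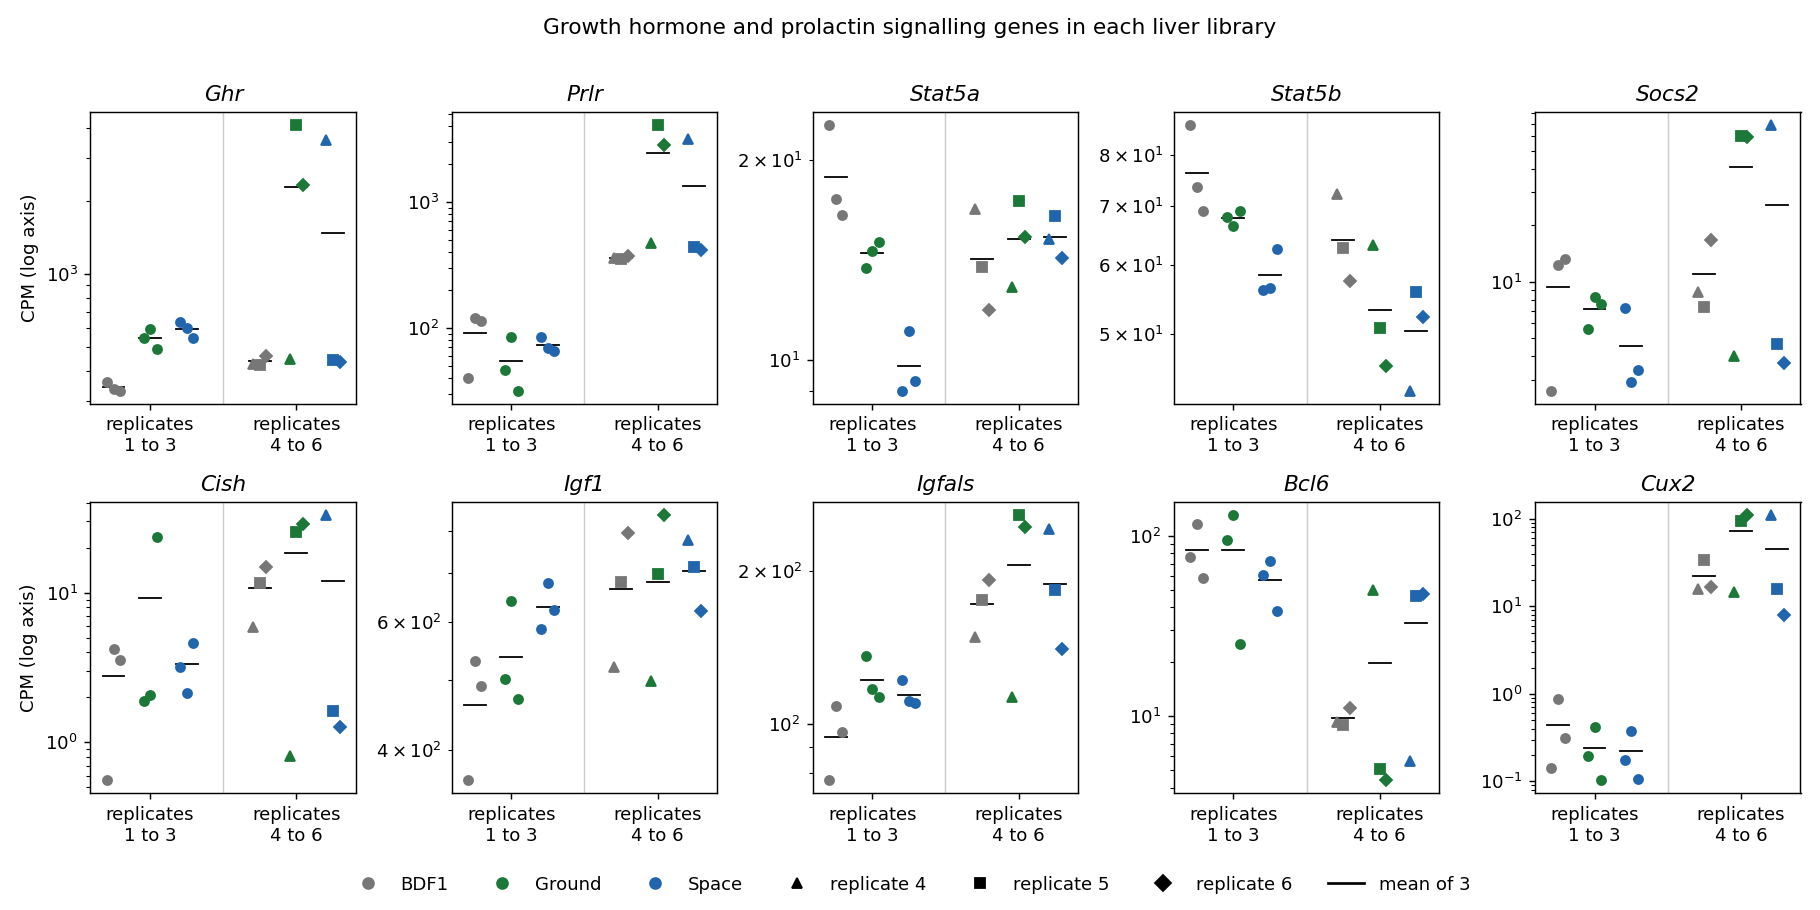
CPM of the 10 genes in each liver library on a log axis, by replicate set and group, with 1 point per library and a line at the mean of 3. In replicates 4 to 6, Space replicate 4 and Ground replicates 5 and 6 have Ghr at 2323 to 4094 CPM, while the other libraries of that set lie between 424 and 458 CPM.

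Both receptors were higher in Ground pups than in BDF1 mice in replicates 4 to 6, and the difference was carried by single libraries. Ghr (ENSMUSG00000055737, chr15:3317760-3583492, minus strand, build mm10) encodes the growth hormone receptor and, by another transcript form, the circulating growth hormone binding protein, which gene-level counts do not separate. Ghr in replicates 4, 5 and 6 was 446, 4094 and 2323 CPM in Ground pups, 3556, 442 and 435 CPM in Space pups and 428, 424 and 458 CPM in BDF1 mice. Ground replicates 5 and 6 and Space replicate 4 were far above every control, and the other 3 pups were within the control range, so the groups overlapped. As a share of total counts those 3 pups were below every control, at 0.0390% to 0.0432% against 0.0487% to 0.0497%. The fitted log2 change in Ground pups against BDF1 mice was 2.39 ± 0.70 (SE, n = 3 against 3), with an adjusted p of 0.0306 in edgeR's quasi-likelihood test. In Space pups it was 1.76 ± 0.69 (SE), with an adjusted p of 0.102.

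Prlr (ENSMUSG00000005268, chr15:10177238-10349180, plus strand) encodes the prolactin receptor, whose long and short forms are not separated either. Prlr in replicates 4, 5 and 6 was 473, 4024 and 2809 CPM in Ground pups, 3156, 435 and 410 CPM in Space pups and 358, 353 and 372 CPM in BDF1 mice. All 6 pup libraries were above all 3 controls, but 3 of them were at 1.14 to 1.31 times the control mean and 3 at 7.78 to 11.1 times. On total counts Space replicates 5 and 6, at 0.0392% and 0.0367%, turned to below every control, at 0.0395% to 0.0414%. The log2 change in Ground pups was 2.75 ± 0.77 (SE), with an adjusted p of 0.0233 in edgeR, and in Space pups it was 1.89 ± 0.74 (SE), with an adjusted p of 0.103. Ghr and Prlr were the 2 members called of 10 in this Ground comparison, beside 15.2% of all genes tested (7.86% higher and 7.35% lower), and both rose. For Space pups in replicates 4 to 6 edgeR called 0 members, beside 11.9% of all genes (6.43% higher and 5.49% lower). At an unadjusted p under 0.05 it gave 4 members, namely Ghr, Prlr, Stat5b and Bcl6, beside 3927 of all 13356 genes. DESeq2 called 0 members and limma voom called 1, Bcl6, beside 2484 genes. Both pup groups were set against the same 3 BDF1 libraries, so the comparisons are not independent. The 2 calls were lost with the replicate set fitted alone (adjusted p = 0.135 for Ghr and 0.0916 for Prlr) and when any 1 of Ground replicate 5, Ground replicate 6 or BDF1 replicates 4, 5 or 6 was left out. Ghr then had log2 changes of 1.66, 2.38, 2.37, 2.37 and 2.42 with adjusted p of 0.136, 0.0622, 0.0907, 0.0936 and 0.0831, and Prlr had 2.18, 2.64, 2.75, 2.74 and 2.77 with adjusted p of 0.0851, 0.0555, 0.0737, 0.0793 and 0.0720. With Space replicate 4 and Ground replicates 5 and 6 all left out, a choice made after seeing the data that removes the high values, the Ground arm was Ground replicate 4 alone, with log2 changes of 0.03 for Ghr and 0.40 for Prlr.

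Ghr in replicates 1 to 3 was higher in every pup than in every control. It was 634, 602 and 546 CPM in Space pups 1, 2 and 3, 544, 592 and 494 CPM in Ground pups and 361, 338 and 332 CPM in BDF1 mice. The groups did not overlap with the controls. The log2 change was 0.79 ± 0.67 (SE) in Space pups and 0.66 ± 0.67 (SE) in Ground pups, and neither passed the edgeR test (adjusted p = 0.564 and 0.685). The spread in that test was estimated over all 18 libraries, Space replicate 4 and Ground replicates 5 and 6 among them. Fitted on the 9 libraries of replicates 1 to 3 alone, the log2 changes were 0.78 and 0.66 with adjusted p of 0.00171 and 0.00779 in edgeR. DESeq2 and limma voom on all 18 libraries gave adjusted p of 0.588 and 0.121 in Space pups, and 0.706 and 0.337 in Ground pups. Prlr in the same libraries was 84.4, 69.8 and 65.9 CPM in Space pups, 46.5, 84.7 and 31.8 CPM in Ground pups and 40.1, 120 and 113 CPM in BDF1 mice, and the groups overlapped. Its log2 changes of -0.31 ± 0.72 and -0.75 ± 0.73 (SE) did not pass (adjusted p = 0.864 and 0.669 in edgeR).

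Between the sets of BDF1 mice, Prlr was higher in replicates 4 to 6, at 361 ± 9.50 CPM, than in replicates 1 to 3, at 91.2 ± 44.4 CPM (SD, n = 3 each), without overlap. The log2 change of 1.99 ± 0.75 (SE) did not pass in edgeR (adjusted p = 0.0855), while DESeq2 and limma voom gave adjusted p of 0.0476 and 0.00389. Ghr in BDF1 mice was 437 ± 18.8 CPM and 343 ± 15.2 CPM (SD, n = 3), a log2 change of 0.35 ± 0.67 (SE) with an adjusted p of 0.780 in edgeR. The ratio of Ghr counts to Prlr counts was between 0.827 and 1.23 in every library of replicates 4 to 6, the 3 with high receptor levels included, and between 2.81 and 15.5 in replicates 1 to 3. Within replicates 4 to 6 the ratio was 0.827 to 1.13 in the 6 pups and 1.195 to 1.234 in the controls, without overlap.

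Stat5a (ENSMUSG00000004043, chr11:100859351-100885169, plus strand) and Stat5b (ENSMUSG00000020919, chr11:100780731-100850724, minus strand) lie side by side and encode the transcription factors that carry the signal of both receptors. Stat5a fell in Space pups of replicates 1 to 3, the 1 member of 10 called there, beside 4.64% of all genes (2.85% higher and 1.80% lower than in BDF1 mice). It was 9.003, 11.1 and 9.30 CPM in Space pups 1, 2 and 3, 13.7, 14.6 and 15.1 CPM in Ground pups and 22.5, 17.5 and 16.5 CPM in BDF1 mice. Every Space library was below every Ground library, and every Ground library below every control. The values rested on 153 to 176 counts in Space pups and 316 to 481 in BDF1 mice. The log2 change in Space pups was -0.95 ± 0.15 (SE, adjusted p = 0.00241 in edgeR), a level 1.93-fold lower. It stayed past the threshold without any 1 of the 18 libraries, with log2 changes from -1.05 to -0.79. In Ground pups the log2 change was -0.38 ± 0.15 (SE, adjusted p = 0.216), and between Space and Ground pups it was -0.56 ± 0.15 (SE, adjusted p = 0.277), both short of the threshold in edgeR.

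Stat5a in replicates 4 to 6 was 15.2, 16.5 and 14.2 CPM in Space pups, 12.9, 17.4 and 15.3 CPM in Ground pups and 16.9, 13.8 and 11.9 CPM in BDF1 mice. The 3 groups overlapped there, with log2 changes of 0.11 ± 0.15 and 0.10 ± 0.15 (SE) that turned to -0.29 and -0.40 on total counts. The change in Space pups differed between the replicate sets by 1.05 ± 0.21 (SE) on the log2 scale, with an adjusted p of 0.0124 in edgeR, the 1 member called for this difference beside 3.19% of all genes (1.77% with a higher and 1.42% with a lower change). With scaling by total counts the difference was 0.79, with an adjusted p of 0.0665. Stat5a overlaps Stat3 on the other strand and is nearly identical to Stat5b over long stretches, and the treatment of strand and of shared reads in the counting is not stated, so the split of reads between these genes is uncertain.

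Stat5b, the more abundant of the pair, was 56.1, 56.4 and 62.5 CPM in Space pups 1, 2 and 3, 67.96, 66.4 and 69.1 CPM in Ground pups and 86.5, 73.6 and 69.1 CPM in BDF1 mice. All Space libraries lay below all controls, and the Ground pups overlapped with the controls, although on total counts they too lay below all of them. The log2 change in Space pups was -0.39 ± 0.13 (SE, adjusted p = 0.106 in edgeR). Fitted on replicates 1 to 3 alone it was -0.40 with an adjusted p of 0.0287. Stat5b in replicates 4 to 6 was 43.1, 55.9 and 52.3 CPM in Space pups, 63.1, 50.8 and 45.9 CPM in Ground pups and 72.1, 62.7 and 57.4 CPM in BDF1 mice. The lowest 3 of these 9 values were those of Space replicate 4, Ground replicate 6 and Ground replicate 5. The log2 changes were -0.35 ± 0.13 in Space pups and -0.27 ± 0.13 in Ground pups (SE, adjusted p = 0.0947 and 0.188 in edgeR). Scaling by total counts moved the median of all genes by -0.40 in Space pups and -0.47 in Ground pups of this set, and on that scale Stat5b had log2 changes of -0.74 and -0.71 with adjusted p of 0.0124 and 0.0105. Stat5b counts were 3.84 to 6.72 times those of Stat5a in replicates 1 to 3. In Space replicate 4 and Ground replicates 5 and 6 the ratio was 2.83, 2.92 and 2.99, below the 3.39 to 4.90 of the other replicates 4 to 6.

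**Figure D2:**
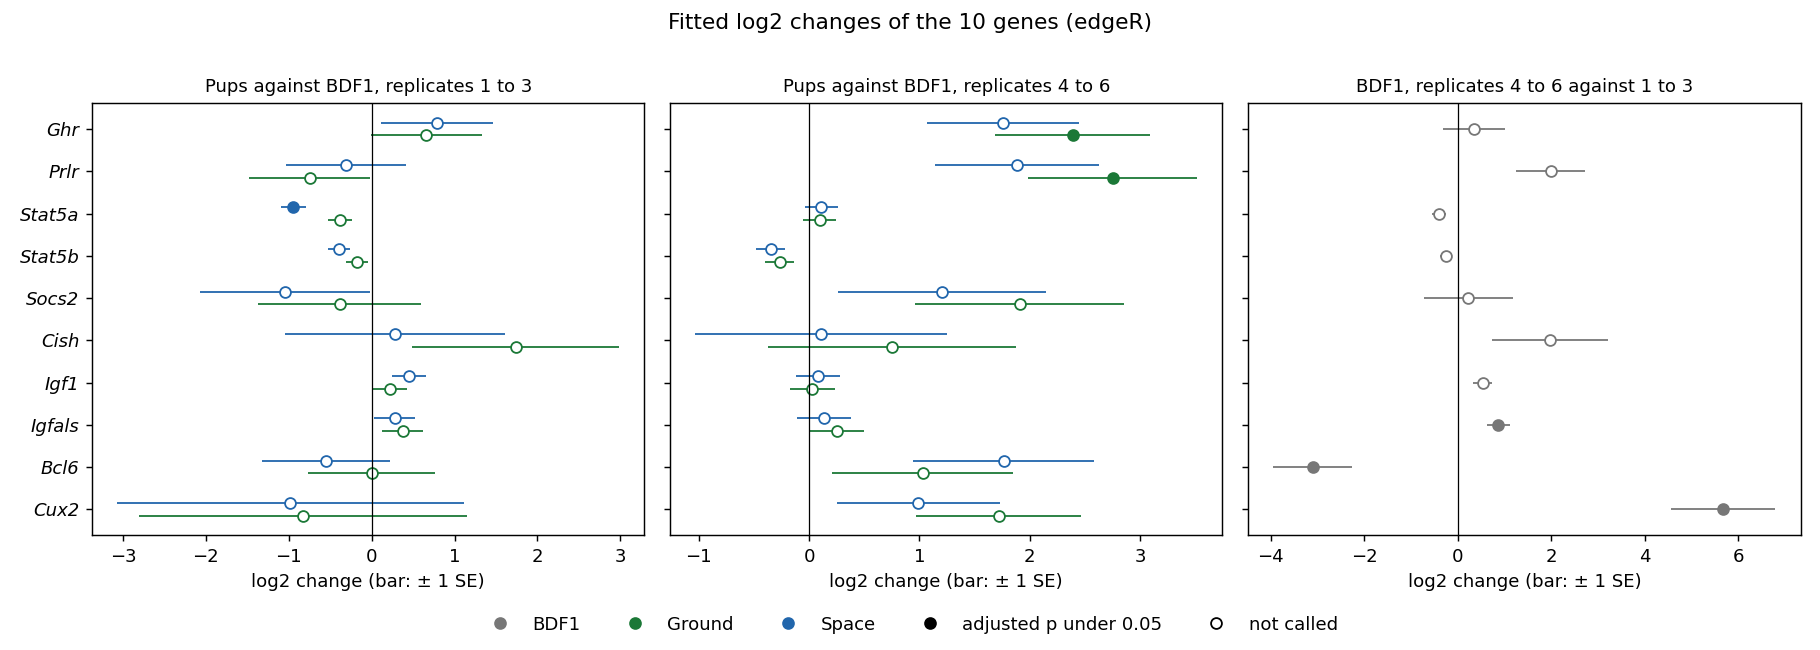
Fitted log2 changes of the 10 genes with bars of 1 SE, for Space and Ground pups against BDF1 mice in each replicate set and for the 2 sets of BDF1 mice. Filled points have an adjusted p under 0.05 and are Stat5a in Space pups of replicates 1 to 3, Ghr and Prlr in Ground pups of replicates 4 to 6, and Igfals, Bcl6 and Cux2 between the BDF1 sets.

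The feedback genes split the pups of replicates 4 to 6 into libraries above and libraries below all controls. Socs2 (ENSMUSG00000020027, chr10:95385362-95417180, minus strand) encodes a STAT5-induced inhibitor of growth hormone receptor signalling. It was 68.3, 4.64 and 3.70 CPM in Space pups 4, 5 and 6, 4.03, 60.0 and 59.3 CPM in Ground pups and 8.76, 7.34 and 16.7 CPM in BDF1 mice. Space replicate 4 and Ground replicates 5 and 6 were 5.42 to 6.25 times the control mean, and the other 3 pups were 2.36 to 2.95 times below it. Cish (ENSMUSG00000032578, chr9:107296026-107302784, plus strand), the founding STAT5-induced member of the same inhibitor family, was 33.1, 1.63 and 1.27 CPM in Space pups 4, 5 and 6. It was 0.817, 25.3 and 28.7 CPM in Ground pups and 5.86, 11.7 and 14.9 CPM in BDF1 mice. The same 3 libraries were 2.34 to 3.06 times the control mean, and the other 3 were 6.66 to 13.2 times below it, with 14 counts in the lowest. Group means thus joined values on both sides of the controls. The log2 changes were 1.20 ± 0.94 in Space pups and 1.91 ± 0.95 in Ground pups for Socs2, and 0.11 ± 1.14 and 0.75 ± 1.12 for Cish (SE, adjusted p = 0.421, 0.186, 0.960 and 0.696 in edgeR). On total counts the value for Cish in Space pups turned to -0.40.

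Socs2 in replicates 1 to 3 was 7.24, 2.89 and 3.39 CPM in Space pups, 5.61, 8.28 and 7.55 CPM in Ground pups and 2.62, 12.2 and 13.3 CPM in BDF1 mice. BDF1 replicate 1 was the lowest of these 9 libraries (on total counts Space replicate 2 was), and all groups overlapped. Cish was 3.18, 2.14 and 4.62 CPM in Space pups, 1.90, 2.06 and 23.5 CPM in Ground pups and 0.562, 4.23 and 3.55 CPM in BDF1 mice. Ground replicate 3 stood alone at a level otherwise seen in Space replicate 4 and Ground replicates 5 and 6, and BDF1 replicate 1 was again lowest, with 12 counts. None of the log2 changes of Socs2 or Cish passed in this set (adjusted p of 0.532 or more in edgeR). In BDF1 mice Cish was higher in replicates 4 to 6 without overlap, a log2 change of 1.98 ± 1.25 (SE, adjusted p = 0.319), and Socs2 overlapped between the sets.

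The circulating products of the pathway are Igf1 and Igfals. Igf1 (ENSMUSG00000020053, chr10:87858265-87937042, plus strand) encodes the growth factor that the liver releases under growth hormone. It was 779, 714 and 622 CPM in Space pups 4, 5 and 6, 499, 700 and 843 CPM in Ground pups and 521, 681 and 796 CPM in BDF1 mice. The groups overlapped, and none of the 3 libraries with high Ghr exceeded the control mean by more than 1.27 times. The log2 changes were 0.08 ± 0.20 in Space pups and 0.03 ± 0.20 in Ground pups (SE, adjusted p = 0.825 and 0.940 in edgeR). Relative to total counts they were -0.32 and -0.48 (adjusted p = 0.124 and 0.0248), so the direction of Igf1 turned with the scaling. Igf1 in replicates 1 to 3 was 587, 679 and 624 CPM in Space pups, 501, 642 and 470 CPM in Ground pups and 364, 530 and 490 CPM in BDF1 mice. All Space libraries were above all controls there, with a log2 change of 0.45 ± 0.20 (SE) that did not pass in edgeR (adjusted p = 0.230). In Ground pups, which overlapped with the controls, it was 0.22 ± 0.20 (SE, adjusted p = 0.640).

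Igfals (ENSMUSG00000046070, chr17:24865997-24882010, plus strand) encodes the acid-labile subunit, which holds IGF1 and its binding protein in a long-lived plasma complex. It was 241, 184 and 140 CPM in Space pups 4, 5 and 6, 113, 258 and 245 CPM in Ground pups and 149, 175 and 192 CPM in BDF1 mice. Space replicate 4 and Ground replicates 5 and 6 were the highest 3 of the 9 libraries, each at 1.40 times the control mean or more with TMM factors. As a share of total counts they were within the control range, at 0.0172% to 0.0196% against 0.0169% to 0.0205%. The groups overlapped, with log2 changes of 0.13 ± 0.24 and 0.25 ± 0.24 (SE, adjusted p = 0.761 and 0.519 in edgeR), which turned to -0.29 and -0.28 on total counts. Igfals in replicates 1 to 3 was 122, 111 and 110 CPM in Space pups, 136, 117 and 113 CPM in Ground pups and 77.6, 108 and 96.6 CPM in BDF1 mice. Every pup was above every control by a small margin with TMM factors, while on total counts Space replicates 2 and 3, at 0.0114% and 0.0116%, were below BDF1 replicate 2, at 0.01205%. The log2 changes of 0.28 ± 0.25 and 0.37 ± 0.25 (SE) did not pass (adjusted p = 0.583 and 0.487 in edgeR).

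Between the sets of BDF1 mice, 3 members of 10 were called in edgeR, Igfals, Bcl6 and Cux2, beside 14.6% of all genes (7.29% higher and 7.33% lower in replicates 4 to 6). Igfals was higher in replicates 4 to 6, at 172 ± 22.0 CPM against 94.2 ± 15.6 CPM (SD, n = 3), a log2 change of 0.87 ± 0.25 (SE, adjusted p = 0.0260). Without BDF1 replicate 1, 3, 5 or 6 it was 0.73, 0.88, 0.84 or 0.78, with adjusted p of 0.114, 0.0713, 0.0735 or 0.0864. Bcl6 (ENSMUSG00000022508, chr16:23965052-23988852, minus strand) was lower in replicates 4 to 6, at 9.21, 8.96 and 11.1 CPM against 76.0, 116 and 58.5 CPM. The sets were far apart, with a log2 change of -3.10 ± 0.85 (SE, adjusted p = 0.0213). Without BDF1 replicate 2, 4, 5 or 6 it was -2.79, -3.06, -3.05 or -3.20, with adjusted p of 0.0611, 0.0698, 0.0850 or 0.0648. Cux2 (ENSMUSG00000042589, chr5:121856366-122050102, minus strand) was 16.0, 34.1 and 16.7 CPM in replicates 4, 5 and 6 and 0.140, 0.878 and 0.313 CPM, or 3, 16 and 6 counts, in replicates 1, 2 and 3. Its log2 change of 5.68 ± 1.12 (SE, adjusted p = 0.00268 in edgeR) passed without any 1 of the 18 libraries. Of the members not described elsewhere between these sets, Stat5a had a log2 change of -0.41, Stat5b -0.25 and Igf1 0.53 (adjusted p = 0.0754, 0.216 and 0.0902 in edgeR).

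Bcl6 fell in 3 separate ranges among the 9 libraries of replicates 4 to 6, and Cux2 was high in 3 of them. Bcl6 was 46.1, 47.2 and 49.8 CPM in Space replicates 5 and 6 and Ground replicate 4, which is 4.72 to 5.11 times the control mean of that set. It was 5.62, 5.07 and 4.42 CPM in Space replicate 4 and Ground replicates 5 and 6, below the lowest control. Cux2 was 110, 95.2 and 111 CPM in the latter 3 libraries, 4.27 to 5.00 times the control mean, and 16.0, 8.03 and 14.5 CPM in Space replicates 5 and 6 and Ground replicate 4, the first of these within the control range, or below it on total counts. The ratio of Cux2 counts to Bcl6 counts was 18.8 to 25.2 in Space replicate 4 and Ground replicates 5 and 6, 1.51 to 3.81 in BDF1 mice and 0.170 to 0.348 in the other 3 pups. It was 0.00758 or less in all libraries of replicates 1 to 3. These pup libraries are described one by one, since groups of libraries chosen by their own values allow no test.

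By group, the log2 changes of Bcl6 in replicates 4 to 6 were 1.77 ± 0.82 in Space pups and 1.03 ± 0.82 in Ground pups, and those of Cux2 were 0.99 ± 0.74 and 1.72 ± 0.75 (SE, adjusted p = 0.163, 0.426, 0.397 and 0.131 in edgeR). Bcl6 in replicates 1 to 3 was 60.3, 72.4 and 38.2 CPM in Space pups, 94.8, 131 and 25.0 CPM in Ground pups and 76.0, 116 and 58.5 CPM in BDF1 mice. Ground replicate 3, the library with high Cish, had the lowest Bcl6 of these 9. The log2 changes there were -0.55 ± 0.77 and -0.00025 ± 0.76 (SE, adjusted p = 0.751 and 1 in edgeR). Cux2 in the pups of replicates 1 to 3 rested on 2 to 8 counts, between 0.104 and 0.422 CPM, too few for a comparison at this depth.

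**Figure D3:**
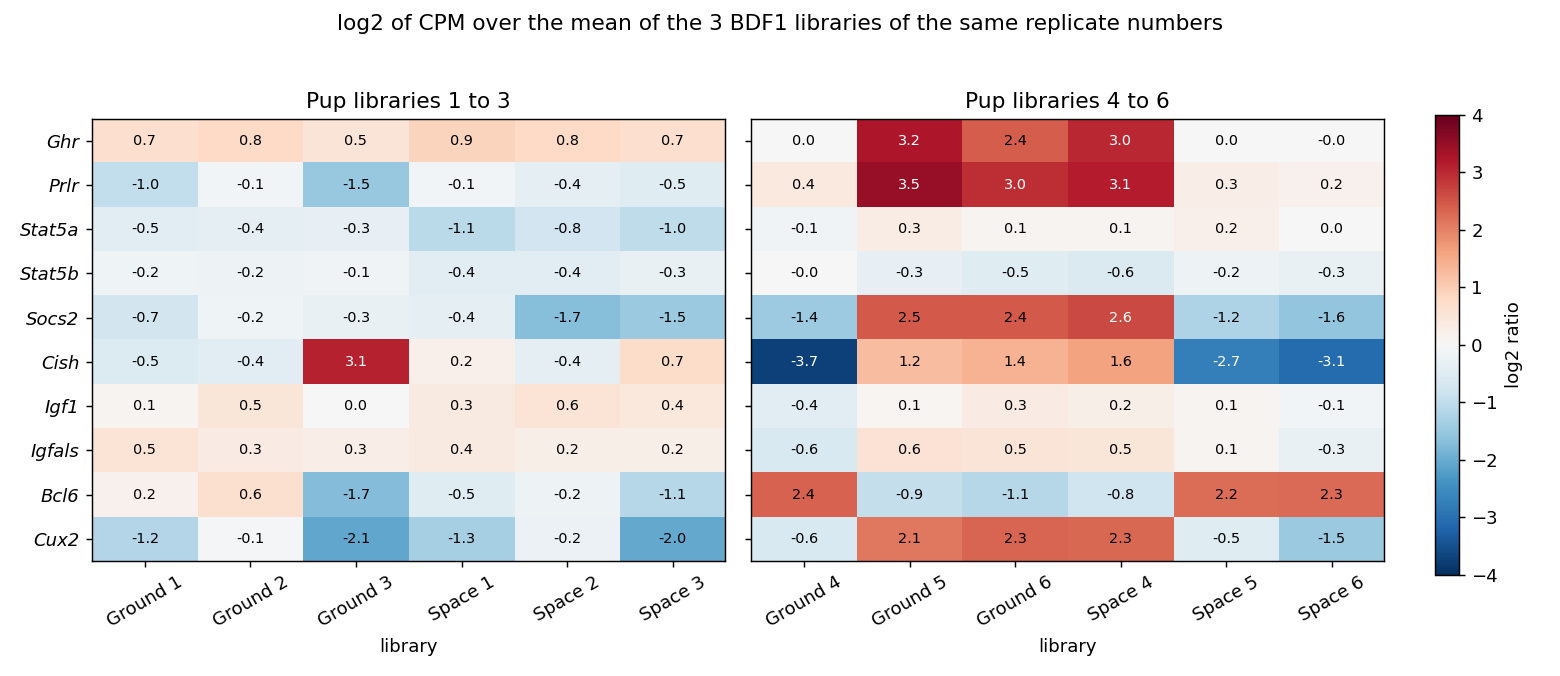
Log2 of each pup library's CPM over the mean of the 3 BDF1 libraries of the same replicate set, for the 10 genes, with replicates 1 to 3 on the left and 4 to 6 on the right. Space replicate 4 and Ground replicates 5 and 6 have Ghr, Prlr, Socs2, Cish and Cux2 above and Bcl6 below the control mean, and Space replicates 5 and 6 and Ground replicate 4 have Bcl6 above and Socs2, Cish and Cux2 below it.

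Counted over the members, 5 of 10 were more than 2-fold from the BDF1 mean in Space replicate 4, beside 10.2% of all genes tested. In Ground replicate 5 it was 5 of 10 beside 9.55%, and in Ground replicate 6 it was 6 of 10 beside 8.05%. In Space replicates 5 and 6 and Ground replicate 4 it was 3, 4 and 3 of 10, beside 3.72%, 4.03% and 5.09% of all genes. These counts add 0.5 CPM to both sides of the ratio. The members were chosen with earlier results of these data known, so a share above that of all genes is no test. Among pup libraries of replicates 1 to 3 the number was 3 in Ground replicate 3, 2 in Space replicate 3, 1 each in Space replicates 1 and 2 and 0 in Ground replicates 1 and 2, beside 2.78% to 3.74% of all genes. Without the added 0.5 CPM, Ground replicate 3 and Space replicate 3 had 4 each, Space replicate 1 had 2 and Ground replicate 1 had 1, the added genes being Cux2 at 2 to 4 counts and, in Space replicate 3, also Stat5a. Counting instead the members whose groups did not overlap, Space pups in replicates 1 to 3 had 5, beside 35.2% of all genes, and Ground pups had 3, beside 23.9%. In replicates 4 to 6 the numbers were 2 beside 31.5% and 1 beside 30.02%. On total counts they were 4 beside 40.04% and 4 beside 24.7% in replicates 1 to 3, and 1 beside 52.2% and 1 beside 48.4% in replicates 4 to 6.

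Between Space and Ground pups edgeR called 0 members in either set. In replicates 1 to 3, where 0.00749% of all genes were called, 1 member had an unadjusted p under 0.05 (1292 of all genes did), Stat5a, which limma voom called with a log2 change of -0.54 (adjusted p = 0.0447) and DESeq2 did not. The log2 changes of the 10 members there lay between -1.45 for Cish and 0.43 for Prlr. In replicates 4 to 6, where 0.0225% of genes were called, 0 members had an unadjusted p under 0.05, and DESeq2 and limma voom called 0. The log2 changes were then -0.63 ± 0.67 for Ghr and -0.87 ± 0.72 for Prlr (SE), each group holding both high and low libraries, and those of the other members lay between -0.73 for Cux2 and 0.74 for Bcl6. In Ground pups of replicates 1 to 3 edgeR called 0 members beside 1.92% of all genes (1.14% higher and 0.786% lower), with 1, Stat5a, at an unadjusted p under 0.05 (2128 of all genes), and DESeq2 and limma voom called 0. The change in Ground pups differed between sets in 0 members by edgeR, beside 2.74% of genes (1.34% with a higher and 1.40% with a lower change), and 2, Prlr and Stat5a, had an unadjusted p under 0.05, beside 2317 of all genes. The difference for Prlr was 3.50 ± 1.05 on the log2 scale (SE, adjusted p = 0.0847 in edgeR), and it was the 1 member called by DESeq2 (adjusted p = 0.0246) and by limma voom (adjusted p = 0.0129).

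Of 26 other genes of growth hormone and prolactin signalling, which comprise kinases, SOCS proteins, phosphatases, adaptors, other STATs and the insulin and IGF1 receptors, 25 were tested. Among Space pups of replicates 1 to 3, 0 rose and 2 fell: Irs2, an insulin receptor substrate, by 1.01 ± 0.27 (SE) and Pias3, an inhibitor of STATs, by 0.75 ± 0.17 on the log2 scale (adjusted p = 0.0445 and 0.0174 in edgeR), beside 4.64% of all genes. In Ground pups of that set 0 of 25 passed, beside 1.92%. Among Space pups of replicates 4 to 6, the adaptor Sh2b2 rose, with a log2 change of 1.24 ± 0.23, and the kinase Jak1 fell by 0.57 ± 0.15 (SE, adjusted p = 0.00375 and 0.0256), 2 of 25 beside 11.9% of all genes. In Ground pups, 3 rose and 1 fell, and these 4 of 25 stood beside 15.2% of all genes, a share near the background. Sh2b2, the phosphatase Ptpn1 and Socs7 had log2 changes of 0.80, 0.66 and 0.52, and the adaptor Shc1 fell by 0.37 (adjusted p of 0.0312, 0.0306, 0.0187 and 0.0112 in edgeR). The median over the 25 genes lay between -0.14 and 0.03 in these 4 comparisons, and that over all genes tested between -0.00360 and 0.00980. The median over the 10 members was -0.35 and -0.09 in replicates 1 to 3 and 0.56 and 0.89 in replicates 4 to 6, for Space and Ground pups respectively.

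Growth hormone patterns set the liver genes that differ by sex, and these lists were read beside the members. In BDF1 mice, 14 of 15 genes known as higher in male liver were lower in replicates 4 to 6 than in replicates 1 to 3 in edgeR, and 17 of 17 genes known as higher in female liver were higher, beside 7.33% of all genes lower and 7.29% higher. The median of the male list was -3.68 on the log2 scale. Elovl3, a fatty acid elongase of the male list, had a log2 change of -5.76 ± 0.43 (SE), and Cyp3a41a, a cytochrome P450 of the female list, had no count in BDF1 replicates 1 to 3 and 21.7, 35.6 and 11.7 CPM in replicates 4, 5 and 6. In replicates 4 to 6, 3 of 15 male-list genes fell below the BDF1 level in Space pups and 5 of 17 female-list genes rose above it, beside 5.49% of all genes lower and 6.43% higher. In Ground pups, 5 male-list genes were lower and 1 higher, and 7 female-list genes were higher and 1 lower, beside 7.35% of all genes lower and 7.86% higher. Elovl3 had log2 changes of -2.35 ± 0.40 in Space pups and -4.04 ± 0.45 in Ground pups (SE, adjusted p = 0.00208 and 8.06e-05 in edgeR). Cyp3a41b rose, with log2 changes of 3.52 ± 0.40 and 4.26 ± 0.41 (SE, adjusted p = 0.000194 and 1.82e-05), although the near-identical Cyp3a41a may share its reads. Among Space pups of replicates 1 to 3 no gene of either list passed.

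The mean over the female list stood above the controls in all 6 pups of replicates 4 to 6, though not each gene did: Cyp2b13, a cytochrome P450 of that list named here after its values were seen, was 51.6 to 113 CPM in these pups and 170 to 233 CPM in their controls. The mean log2 CPM of the female list was 7.15 to 7.87 in the 6 pups of replicates 4 to 6 and 5.86 to 6.76 in their controls. Space replicates 5 and 6 and Ground replicate 4, with high Bcl6, had 7.19, 7.15 and 7.44, and Space replicate 4 and Ground replicates 5 and 6, with high Cux2, had 7.64, 7.65 and 7.87. The male list had 3.28 to 4.25 in the pups and 4.16 to 4.90 in the controls of that set. For replicates 1 to 3 the male list lay between 7.78 and 8.74 and the female list between -1.12 and 1.09 in every library. There the female list had 0.713 in Space replicate 1 and 0.826 and 1.09 in Ground replicates 1 and 2. The other libraries of that set had -0.446 or less. Xist counts in the former were 30, 145 and 187, against 0 to 4 in the latter.

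**Figure D4:**
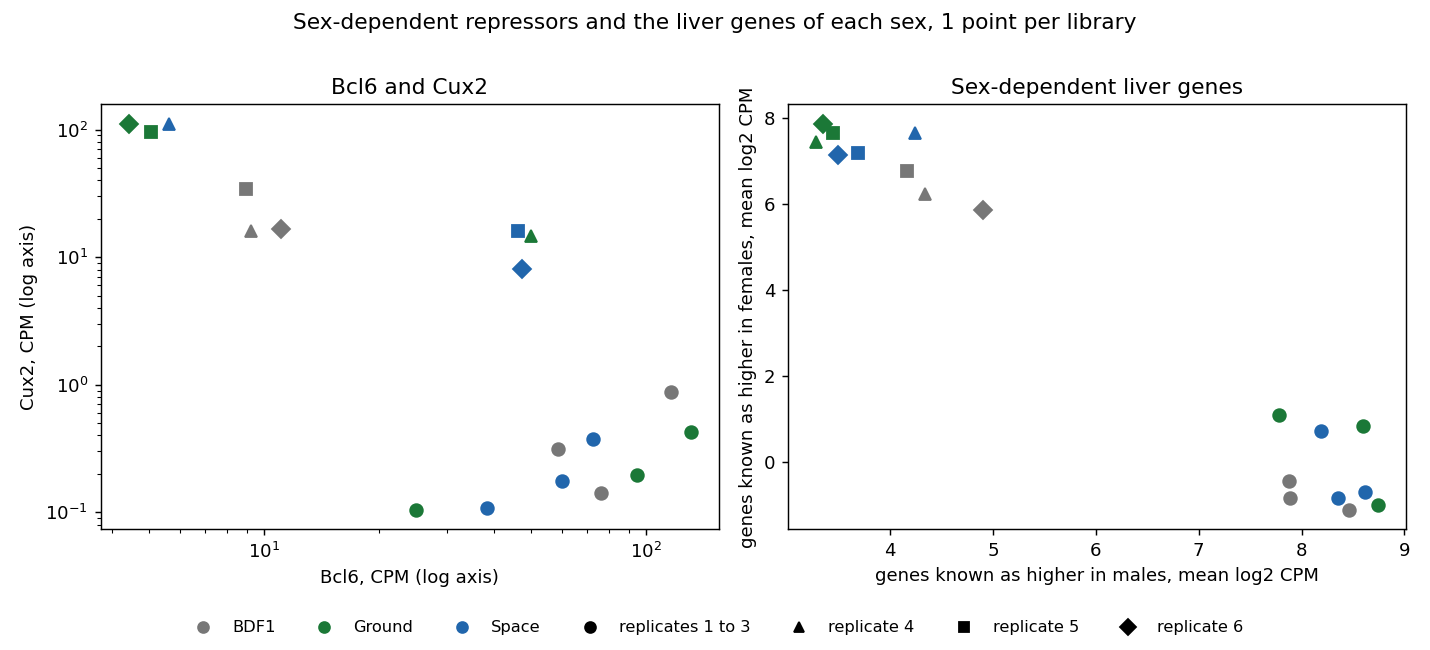
Left, Cux2 against Bcl6 in CPM on log axes, and right, the mean log2 CPM of 17 liver genes known as higher in females against that of 15 known as higher in males, with 1 point per library. On the left, the libraries of replicates 4 to 6 fall in 3 places, with Bcl6 at 4.42 to 5.62, 8.96 to 11.1 or 46.1 to 49.8 CPM, while on the right all 6 pups of that set lie at 7.15 or more on the female list.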

How the data were processed

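RNA from 18 livers, 6 in each of 3 groups, was sequenced by the authors in paired-end mode from stranded mRNA libraries, per the labels. The deposited table holds raw whole-number counts for each gene without normalization, with totals of 15407450 to 20562351 per library. The submitters' processing notes name bcl2fastq 2.20, cutadapt 4.6, HISAT2 2.2.1, HTSeq 2.0.2 and build mm10, without roles. The methods of the study describe RNA sequencing with another kit and sequencer and GENCODE M21, so how far they apply here is uncertain, and the strand setting and the treatment of shared reads are not stated. No row lacked a gene name, and 10671 of 32285 genes had no count.

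The labels gave the groups and the replicate numbers. Genes passing filterByExpr (minimum count 10) over the 6 combinations of group and replicate set, 13356 in all, received TMM factors. A quasi-likelihood model was then fitted (edgeR 4.0.16, R 4.3.3) with 1 mean per combination and 12 residual degrees of freedom. Of 9 contrasts, p-values were adjusted by Benjamini-Hochberg over all genes tested and called under 0.05. Standard errors were obtained by dividing the size of each log2 change by the root of its F statistic. The list levels used log2 CPM with a prior count of 2. The labels call the libraries biological replicates, so p-values measure the spread between these animals. The study does not say which recipient fathered each pup, so pups of a group may share a father. The p-values do not measure the spread between recipients or between vials of stored cells. Levels per kilobase used the exon length of GENCODE M21, and coordinates are those of mm10. Any 2 libraries of a combination differed with a chi-square per gene of at least 9.78, so all were treated as separate libraries.

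The fits were tested on simulated data with 200 genes changed by a known fold, and none of these was called in the wrong direction. That outcome does not show how many changed genes were found or how many unchanged genes were called. Alternatives were DESeq2 1.42.0, its size factors in edgeR, limma 3.58.1 voom with quality weights, scaling by total counts, a fit without the 10 most abundant genes, no filter, the replicate number as a block, each replicate set fitted alone, and leaving out each library. Leaving out Space replicate 4 and Ground replicates 5 and 6 together was added after seeing the data. The rule for named genes takes all 10 members in each comparison, up to 5 other pathway genes called and up to 3 called genes of each list of sex-dependent genes. The members and lists were chosen with earlier results of these data known. Promoter sequences are from RefSeq, build GRCm38.p6. Some genes under this rule are left out of the text, and members not called between Space and Ground pups or between sets are in part given by range or count only.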

Additional observations from a re-analysis of the deposited data

Results flagged for a closer look

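Gaps within a group were examined in 30 sets of 6 libraries, which are the 10 genes in each group of 6. In 5 of them 1 library was separated from the nearest of the others by more of the whole range than Dixon's limit. That limit is passed by chance in about 1 in 20 sets of independent samples from 1 population, which is no benchmark here, since each set joined replicates 1 to 3 with replicates 4 to 6 and all 5 were the same library, Space replicate 4. The gap made up 0.936 of the range for Ghr, 0.934 for Socs2, 0.895 for Cish, 0.881 for Prlr and 0.855 for Cux2. In Ground pups, where replicates 5 and 6 were both high, no set passed this limit.

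The change of Stat5a in Space pups against BDF1 mice differed between replicates 4 to 6 and replicates 1 to 3 by 1.05 on the log2 scale (adjusted p = 0.0124 in edgeR). Stat5a was lower than in the controls in 3 of 3 Space libraries of replicates 1 to 3 and within the control range in 3 of 3 of replicates 4 to 6 with TMM factors, although on total counts Space replicate 4 was below it.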

How the results depend on the processing

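None of the 7 called changes turned in direction without 1 library or under the other settings fitted, which were 8 for the pup comparisons, 7 for the difference between sets and 6 for the BDF1 sets, where neither the block nor the set alone was fitted. Under these, Stat5a in Space pups of replicates 1 to 3 and Cux2 between the BDF1 sets passed throughout. The calls of Ghr and Prlr in Ground pups of replicates 4 to 6 were lost without Ground replicate 5 or 6 or any 1 control. The fitted log2 changes without 1 library stayed at 1.66 or more for Ghr and 2.18 or more for Prlr. The members called in that comparison were 2, and leaving out 1 library gave 0 to 4. It was 4 with total counts, 0 with the replicate set fitted alone, and 1, Bcl6, without Space replicate 4 and Ground replicates 5 and 6, which is no test since these libraries were chosen by their values and leave 1 Ground library. For Space pups of replicates 4 to 6 the number was 0, and leaving out 1 library gave 0 to 1. It was 1 with total counts, with limma voom and without the 3 libraries.

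In replicates 1 to 3, Space pups had 1 member called beside 620 genes, and 3 with limma voom (2369 genes), with the set fitted alone (1090) and without the 3 libraries (1207). Ground pups had 0 beside 257 genes, and 1 with the set fitted alone (560) and without the 3 libraries (709). Space against Ground pups had 0, and 1 with limma voom (483 genes). The BDF1 sets had 3 beside 1952 genes, with 1 to 4 when 1 library was left out, 5 with DESeq2 (2330), and 6 with limma voom (3755) and without the 3 libraries (2844). For the difference between sets, Space pups had 1, but 0 with total counts and 3 without the 3 libraries. Ground pups had 0, and 1 with total counts, without a filter, with DESeq2 and with limma voom, and 0 to 1 when 1 library was left out.

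With the replicate number as a block, Ghr and Prlr in Ground pups of replicates 4 to 6 had log2 changes of 2.48 and 2.87 (adjusted p = 0.0727 and 0.0562) and 0 members were called there. The block changed no other call in the comparisons it could be fitted for. The numbers did not pair the libraries within a set, since the correlation of deviations ran from -0.601 to 0.251 over 18 pairs. Total-count scaling moved the median gene by -0.40 and -0.47 in replicates 4 to 6, with 337 genes higher and 4641 lower in Space pups and 402 and 5734 in Ground pups, against 859 and 733, and 1050 and 981, with TMM factors. Depth limits Cux2 in replicates 1 to 3, with 2 to 16 counts.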
